A study of Mus musculus with 8 samples.

Results

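Tight junctions are the seals that run between neighbouring epithelial cells, and 10 genes encoding their components were followed in newborn mouse epidermis that had lost Polycomb repressive complex 2 (PRC2). The genes were taken by name, through the RefSeq accession of their array probes, and were Cldn1, Cldn3, Cldn4, Cldn6, Cldn7, Cldn8, Cldn12 and Cldn23, which encode claudins, together with Ocln and Tjp1. They were 10 of the 36799 genes and other targets on the array, and 9 of them were among the 23139 that passed the filter on dim probes. Cldn6 did not pass it.

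RNA was measured in EED cKO epidermis (K14-Cre; EED flox/flox, n = 4) and in control epidermis (n = 4), all from the back skin of P0 newborn C57BL/6 mice. Eed encodes a core subunit of PRC2, which places a repressive methyl mark on histone H3, and K14-Cre, driven by the Krt14 promoter, deletes it in the skin epithelium from the embryo on. The labels call the samples biological replicates and give the genotype of the other group only as control. For a separate PCR measurement of EED cKO epidermis the study used Cre(-) siblings, but for the arrays the alleles of the control mice are not given in the sources used here. The epidermis was peeled from the dermis and dissociated, so each sample holds all cells of that layer together, including Merkel cells, melanocytes and hair follicle cells. Each sample was hybridized against Universal Mouse Reference RNA, a commercial mixture that was the same on every array, and every level below is a log2 ratio of sample over reference, while a log2 fold change is the difference between EED cKO and control on that scale.

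Claudins are membrane proteins with 4 transmembrane passes whose outer loops meet those of the next cell and decide which ions and solutes can pass between them. Occludin (Ocln) is another membrane protein of the strand, and ZO-1 (Tjp1) is the scaffold under the membrane that ties claudins and occludin to actin. In the epidermis the tight junction sits in the granular layer, where Cldn1 is needed to keep water in the newborn. Cldn3, Cldn4, Cldn7 and Cldn8 are best known from gut, kidney and glandular epithelia, and Cldn6 from embryonic epithelia.

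The promoter windows of 4 claudins are shown because Cldn3 and Cldn7 were called higher in EED cKO epidermis, whereas Cldn4, the neighbour of Cldn3, and Cldn1, the main claudin of the skin barrier, were not called. Each is the stretch of 250 bases before the RefSeq transcription start (GRCm38.p6), written 5′ to 3′ on the strand of the gene, with CG dinucleotides in capitals. PRC2 is known to gather at CG-rich promoters. The Cldn3 window lies at chr5:134985964-134986213 on the plus strand and holds 9 CG dinucleotides. The Cldn4 window lies at chr5:134946935-134947184 on the minus strand and holds 7. The window of the more upstream of 2 Cldn7 starts lies at chr11:69964529-69964778 on the plus strand and holds 6, and the Cldn1 window lies at chr16:26371840-26372089 on the minus strand and holds 14.
Cldn3: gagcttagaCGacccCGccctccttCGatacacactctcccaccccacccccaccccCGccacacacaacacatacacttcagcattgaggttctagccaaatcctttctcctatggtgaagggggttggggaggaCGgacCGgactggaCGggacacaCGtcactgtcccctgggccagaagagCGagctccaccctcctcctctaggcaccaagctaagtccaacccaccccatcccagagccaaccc
Cldn4: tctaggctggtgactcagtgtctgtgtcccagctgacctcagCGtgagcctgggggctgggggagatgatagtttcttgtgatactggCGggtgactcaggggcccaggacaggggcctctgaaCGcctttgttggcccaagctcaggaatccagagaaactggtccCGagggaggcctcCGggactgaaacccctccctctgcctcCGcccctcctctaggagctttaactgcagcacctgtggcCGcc
Cldn7: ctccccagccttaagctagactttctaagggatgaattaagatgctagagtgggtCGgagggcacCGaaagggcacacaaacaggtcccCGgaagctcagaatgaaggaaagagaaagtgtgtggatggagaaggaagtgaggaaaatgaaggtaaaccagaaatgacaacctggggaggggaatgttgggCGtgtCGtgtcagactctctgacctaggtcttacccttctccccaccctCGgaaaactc
Cldn1: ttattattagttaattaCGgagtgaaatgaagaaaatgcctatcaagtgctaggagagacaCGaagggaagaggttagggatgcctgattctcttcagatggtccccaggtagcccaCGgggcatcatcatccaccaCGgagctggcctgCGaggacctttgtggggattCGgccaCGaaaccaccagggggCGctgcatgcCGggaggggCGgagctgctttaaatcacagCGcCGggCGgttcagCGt

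Across the 32851 promoters of the same length the median was 6 CG dinucleotides, with an observed over expected CG ratio of 0.373. That ratio was 0.437 for Cldn3, 0.291 for Cldn4 and 0.377 for the Cldn7 window shown, all near the median, whereas it was 0.745 for Cldn1 and 0.89 for Tjp1. The 2 Ocln windows gave 0.644 and 0.735 and the 3 Cldn12 windows 0.548 to 0.777. Promoters were found for 8 of the 10 genes, with none for Cldn8 and Cldn23. Searched on both strands, the ETS core CCGGAA was present in a window of Cldn7, Cldn12 and Ocln and in 12% of all promoters. The Snail E-box CACCTG was present in windows of Cldn4, Cldn6, Cldn7 and Ocln and in 17.2% of all promoters. The Sp/Klf GC box GGGCGG was present in a window of each of the 8 genes and in 32.7% of all promoters. The grainyhead-like motif AACCNGTT was in none of the windows and in 1.79% of all promoters. A match is a match of letters only, and a gene with 2 or 3 windows had more chances of one than a single promoter.

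Eed itself had a mean level of -1.80 ± 0.17 in the EED cKO group against -0.35 ± 0.13 in the control group (SD, n = 4 each), a log2 fold change of -1.46 (SE 0.09, limma adjusted p = 2.13e-05), so the genotype labels matched the targeted gene. All 8 arrays lay on a single slide in a single scan, with a row of the slide for each genotype, so row and genotype cannot be told apart. As a measure of that row, the reference channel, which held the same RNA everywhere, differed between the rows at an adjusted p below 0.05 for 0.493% of targets, and at an unadjusted p below 0.05 for 8.58%. For the 9 tight junction genes tested its log2 difference lay between -0.11 and 0.05, and 0 of the 9 passed either limit in limma. Spots well above background made up 51.5% to 65.5% of each array. The Y-linked genes Ddx3y, Eif2s3y and Uty were well above background on 2 of 4 control and 0 of 4 EED cKO arrays, and a further Y-linked gene, Kdm5d, on 0 of 4 control arrays and 1 EED cKO array, where it was at 0.52. Xist was well above background on 4 of 4 EED cKO and 2 of 4 control arrays. It was lowest in control replicates 2 and 3, at -2.49 and -1.85, where Ddx3y, Eif2s3y and Uty were highest. These sex-linked genes were therefore not balanced between the genotypes.

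Of the 9 genes tested, 4 rose in EED cKO epidermis and 0 fell at an adjusted p below 0.05 (limma, genotype and dye in the fit, Benjamini-Hochberg over all targets). At an unadjusted p below 0.05 limma gave 5 higher and 2 lower (Cldn1 and Tjp1), and the methods' t-test, run on the values used here, gave 4 higher and 1 lower. The methods also ask for a change of 2-fold or more, and 0 of the 9 met both limits by that test. The share of all targets at these unadjusted limits was not counted. Cldn7 rose by 1.84-fold, Cldn8 by 1.94-fold and Ocln by 1.30-fold. Cldn3 rose as well, but it passed the filter only through the EED cKO arrays, where it is high, so the size of its change and its part in the counts are limited by a control level near background. At this setting 0 of the 9 reached 2-fold, whereas 3 did without background correction and 3 with the deposited log2 ratios. The share of all targets at 2-fold was not counted for those other settings. Over all targets tested, at the reported setting, 21.7% were called, 11.8% higher and 9.93% lower, and 1.2% were called at 2-fold or more (1.1% higher and 0.0994% lower). The 4 EED cKO samples and the 4 control samples did not overlap for the same 4 genes, and for 17.2% of all targets with a value on every array. The median log2 fold change was 0.32 over the 9 genes and 0.02 over all targets. The genes were chosen with earlier results of these data known, so these counts and medians are descriptions only. Because same-numbered samples of the 2 genotypes deviated together, the fit was repeated with the replicate number as a block in place of the dye. That replicate block called 8 of the 9, 6 higher and 2 lower, among 25.9% of all targets. The replicate number also sets the dye and the column of the slide, and the labels do not pair the animals. In whole epidermis a change in the number of cells of a type cannot be told apart from a change in RNA per cell.

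**Figure D1:**
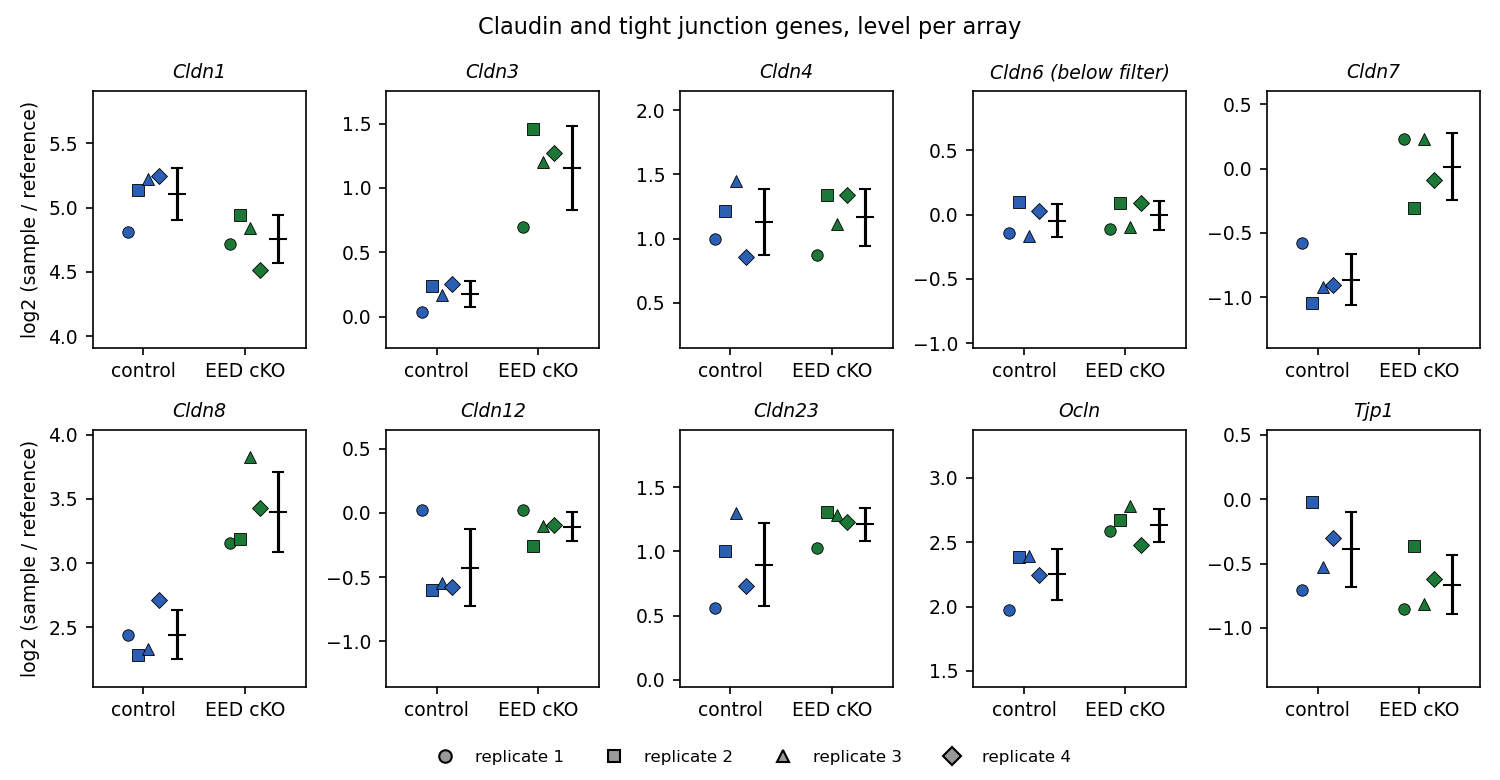
Level of each of the 10 genes on each array, as log2 of sample over reference on the vertical axis, with control in blue and EED cKO in green, replicates by symbol, and the mean ± SD of 4 arrays as a bar beside the points. The EED cKO points of Cldn3, Cldn7, Cldn8 and Ocln all lie above the control points, while those of the other genes overlap. Cldn6 did not pass the filter on dim probes.

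Cldn3, a sealing claudin of simple epithelia, gave log2 ratios of 0.70, 1.46, 1.20 and 1.27 in EED cKO replicates 1 to 4. The control replicates gave 0.03, 0.24, 0.17 and 0.25. The lowest EED cKO sample lay above the highest control sample, and EED cKO replicate 1 was the lowest of its group. The means were 1.16 ± 0.33 and 0.17 ± 0.10 (SD, n = 4), a log2 fold change of 0.98 (SE 0.12, 95% interval 0.72 to 1.25, limma adjusted p = 0.000919), or 1.98-fold on this scale. A two-sided exact permutation test of the 8 arrays gave p = 0.0286, the smallest that 4 against 4 allows. The Cldn3 probe was well above background on 4 of 4 EED cKO arrays and on 1 of 4 control arrays. The control level was therefore close to the limit of what the array could measure, and the size of the fold is uncertain. Cldn3 was tested only through the EED cKO arrays, where it is high, so its p-values, interval and lack of overlap carry the same limit. The value moved with the handling of background. With no background correction the log2 fold change was 1.30 (adjusted p = 0.000129), and the scanner software's own log ratio gave 2.97 (SE 0.25, adjusted p = 0.00115).

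Cldn4 is the gene next to Cldn3 in the order of protein-coding genes, and its protein is often found with claudin-3 in the same epithelia. Its log2 ratios were 0.87, 1.34, 1.11 and 1.34 in EED cKO and 1.00, 1.22, 1.44 and 0.86 in control samples. The groups overlapped over nearly their whole range. The log2 fold change was 0.04 (SE 0.14, 95% interval -0.29 to 0.36, adjusted p = 0.889), and another Cldn4 probe gave -0.10 (SE 0.22). That interval did not reach the log2 fold change of Cldn3, but the difference between the 2 genes was not itself tested. On the other side of Cldn3, Abhd11, which encodes a hydrolase, changed by 0.28 (SE 0.08, adjusted p = 0.0370).

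Cldn7, a claudin of the basolateral membrane as well as of the junction, was measured at 0.23, -0.31, 0.23 and -0.09 in EED cKO samples. In control samples it was at -0.58, -1.05, -0.92 and -0.91. The groups did not overlap, and replicate 2 was the lowest of each. That is a log2 fold change of 0.88 (SE 0.10, 95% interval 0.660 to 1.098, adjusted p = 0.000674), or 1.84-fold. Within the arrays with the sample in Cy3 the log2 fold change was 0.98 (adjusted p = 0.0290), and within those with it in Cy5 it was 0.78 (adjusted p = 0.0215). The probe was well above background on all 8 arrays, and Cldn7 was called under 25 of 25 alternative settings.

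Cldn8, which in the kidney collecting duct is a barrier to cations, was measured at 3.15, 3.19, 3.83 and 3.43 in EED cKO samples. The control samples gave 2.45, 2.28, 2.33 and 2.71. All EED cKO values lay above all control values, with EED cKO replicate 3 the highest. EED cKO over control gave a log2 fold change of 0.96 (SE 0.16, 95% interval 0.61 to 1.31, adjusted p = 0.00344), or 1.94-fold. Within the Cy3 arrays it was 1.103 (adjusted p = 0.0608) and within the Cy5 arrays 0.81 (adjusted p = 0.0376). For Cldn3 the same split gave 0.85 (adjusted p = 0.0705) and 1.12 (adjusted p = 0.00771), so for both genes the call ended within Cy3, with 2 arrays a group, while the direction stayed.

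Ocln encodes occludin, which is spread along the strands that claudins build. Its log2 ratios were 2.59, 2.67, 2.78 and 2.48 in EED cKO and 1.97, 2.39, 2.39 and 2.24 in control samples. The groups did not overlap, but the gap between EED cKO replicate 4 and the highest control samples was smaller than the SD of either group. The change was 0.38 on the log2 scale (SE 0.11, 95% interval 0.13 to 0.63, adjusted p = 0.0356), or 1.30-fold. The other Ocln probe gave 0.26 (SE 0.13, adjusted p = 0.173), with overlapping groups. The call ended when any of EED cKO replicates 1, 2 and 3 or control replicates 1, 2 and 4 was left out, with adjusted p from 0.0508 to 0.107, and it was present in 11 of 25 alternative settings.

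**Figure D2:**
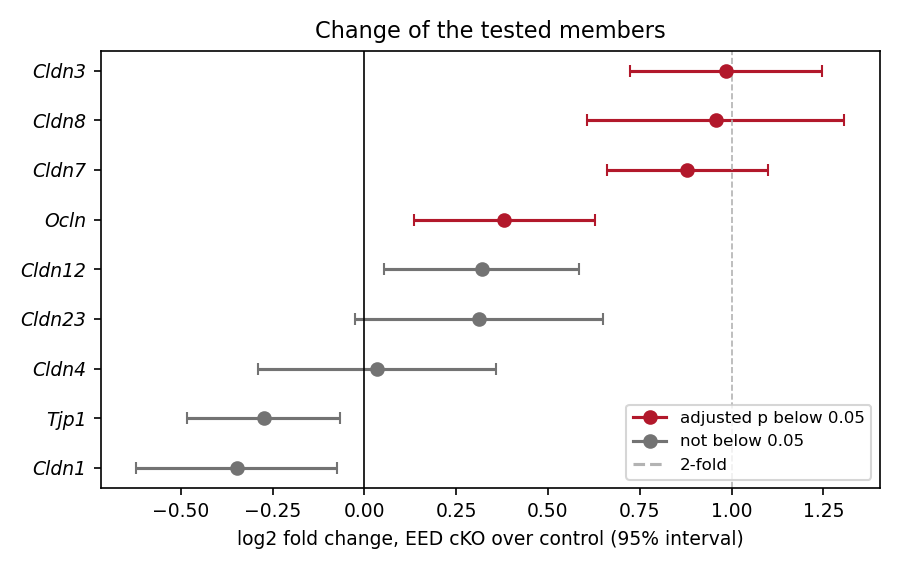
Log2 fold change of EED cKO over control for the 9 genes tested, on the horizontal axis, with its 95% interval from limma over 8 arrays, in red where the adjusted p was below 0.05. The intervals of Cldn3, Cldn7 and Cldn8 span the dashed line at 2-fold, and those of Cldn4 and Cldn23 span 0.

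Cldn1, the claudin on which the epidermal water barrier depends, was measured at 4.72, 4.95, 4.84 and 4.52 in EED cKO samples. The control samples gave 4.81, 5.14, 5.22 and 5.25, so 3 of them lay above every EED cKO sample and replicate 1 lay among them. The log2 fold change was -0.35 (SE 0.12, 95% interval -0.62 to -0.07, adjusted p = 0.0694). With the replicate block the adjusted p was 0.0485, and with the sample channel alone the value was -0.46 (adjusted p = 0.0238). The scanner software's log ratio turned the sign, to 0.40 (adjusted p = 0.164), so the direction for Cldn1 is not settled by these arrays.

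Tjp1 encodes ZO-1, the scaffold that brings claudins together at the junction. It was measured at -0.86, -0.36, -0.82 and -0.62 in EED cKO samples and at -0.70, -0.02, -0.53 and -0.30 in control samples. The groups overlapped, but each EED cKO replicate lay below the control replicate of the same number. Same-numbered samples share the dye and the column of the slide, and the labels do not name them as matched animals. The log2 fold change was -0.27 (SE 0.09, adjusted p = 0.0612), and with the replicate block the adjusted p was 0.0215.

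Cldn12, a claudin known from paracellular calcium uptake in the gut, was measured at 0.02, -0.26, -0.10 and -0.09 in EED cKO samples. The control samples gave 0.02, -0.60, -0.55 and -0.58, with replicate 1 far above the other three. Its log2 fold change was 0.32 (SE 0.12, adjusted p = 0.0828), and the adjusted p was 0.0384 with the replicate block. Without control replicate 1 it was 0.45 (adjusted p = 0.00651). Cldn23 was measured at 1.02, 1.31, 1.28 and 1.23 in EED cKO and at 0.56, 1.01, 1.30 and 0.73 in control samples, which overlapped. Its log2 fold change was 0.31 (SE 0.15, adjusted p = 0.169), with an adjusted p of 0.0469 in the replicate block. Without control replicate 3 it was 0.48 (adjusted p = 0.0143), and without control replicate 1 it was 0.18 (adjusted p = 0.369).

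Cldn6 was well above background on 1 of 4 EED cKO arrays and 0 of 4 control arrays. Its mean log2 ratio was -0.01 in EED cKO and -0.05 in control samples, values at which no fold can be given, and a level below what the array measures remains possible. Of its neighbours, Tnfrsf12a, which encodes the receptor of the cytokine TWEAK, rose by 0.85 (SE 0.11, adjusted p = 0.00116), and Cldn9 gave -0.04 (adjusted p = 0.805).

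The arrays also carried 19 of 20 other claudins and claudin-domain genes on the list, of which 8 passed the filter. Of these 8, 0 were called in either direction, their median log2 fold change was -0.0043, and the most negative value was that of Cldn10, -0.27 (SE 0.12, adjusted p = 0.122). By limma's unadjusted p below 0.05 there was 1 of the 8, Cldn10, and by the methods' unadjusted test 0 of the 8. Over all targets 21.7% were called, and the share at the unadjusted limits was not counted. Cldn5 passed the filter only through the EED cKO arrays and Cldn19 only through the control arrays. The other claudin genes were therefore either not measurable here or gave values whose change was not detectable with 4 arrays a group.

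Of 10 other membrane proteins of the junction tested, 1 rose and 1 fell, with a median of 0.13. Bves, which encodes a cell adhesion protein of the Popeye family, rose from -2.10 ± 0.23 to -0.77 ± 0.11 (SD, n = 4), a log2 fold change of 1.32 (SE 0.11, adjusted p = 0.000107). Lsr encodes angulin-1, which marks the corners where 3 cells meet, and fell by 0.28 (SE 0.08, adjusted p = 0.0438), with overlapping groups. Its partner at those corners, tricellulin (Marveld2), the gene next to Ocln, changed by 0.22 (SE 0.14, adjusted p = 0.292), and the adhesion receptor gene F11r by 0.08 (adjusted p = 0.626).

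Of 26 plaque and polarity proteins tested, 2 rose and 3 fell, with a median of -0.07. Shroom2, an actin-binding protein found at the junction, fell by 0.80 (SE 0.11, adjusted p = 0.00194). Pard6g and Pard3, subunits of the PAR polarity complex, fell by 0.47 (adjusted p = 0.00418) and by 0.41 (adjusted p = 0.0118). Magi3, a scaffold, gave 0.48 (SE 0.09, adjusted p = 0.00520) with overlapping groups, and was well above background on 4 EED cKO but only 2 control arrays, so it passed the filter only through the EED cKO arrays. Amot, an angiomotin that links junctions to the Hippo pathway, rose by 0.36 (adjusted p = 0.0141). Tjp3, which encodes the scaffold ZO-3, gave -0.10 (adjusted p = 0.699), and the plaque protein gene Cgn gave 0.04 (adjusted p = 0.930).

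Of 7 genes of claudin binding and of the matriptase pathway, 1 rose and 0 fell, with a median of 0.10. Lnx1, an E3 ubiquitin ligase that takes claudins from the junction, rose by 0.81 (SE 0.19, adjusted p = 0.0159), although its groups overlapped. Epcam, which binds claudin-7, gave 0.10 (adjusted p = 0.374), and the proteases Prss8 and St14 gave 0.45 (adjusted p = 0.0839) and -0.03 (adjusted p = 0.848).

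Of 10 adherens junction genes, 1 rose and 3 fell, with a median of -0.25. Cdh3, P-cadherin, fell by 0.90 (SE 0.16, adjusted p = 0.00527), Ctnnd1, p120-catenin, fell by 0.68 (SE 0.10, adjusted p = 0.00209), and Ctnna1, alpha-catenin, fell by 0.61 (adjusted p = 0.0143). The groups overlapped for Cdh3 and Ctnna1 but not for Ctnnd1. Nectin3 rose by 0.31 (adjusted p = 0.0259), and Cdh1, E-cadherin, gave -0.06 (adjusted p = 0.663).

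Of 20 epithelial transcription factors tested, 1 rose and 6 fell, with a median of -0.12. Ehf, an ETS factor of glandular and other epithelia, rose by 1.62 (SE 0.18, adjusted p = 0.000658). Klf4, a regulator of the late skin barrier, fell by 0.70 (SE 0.14, adjusted p = 0.00746). Klf5 and Grhl2, a grainyhead-like factor known to activate claudin genes, fell by 0.55 (adjusted p = 0.0128) and by 0.68 (SE 0.15, adjusted p = 0.0129). The groups overlapped for Grhl2 but not for Klf4 and Klf5. In these 6 lists together, 19 of 81 genes (junction proteins, their partners and transcription factors) were called, 6 higher and 13 lower, beside the 21.7% called over all targets.

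**Figure D3:**
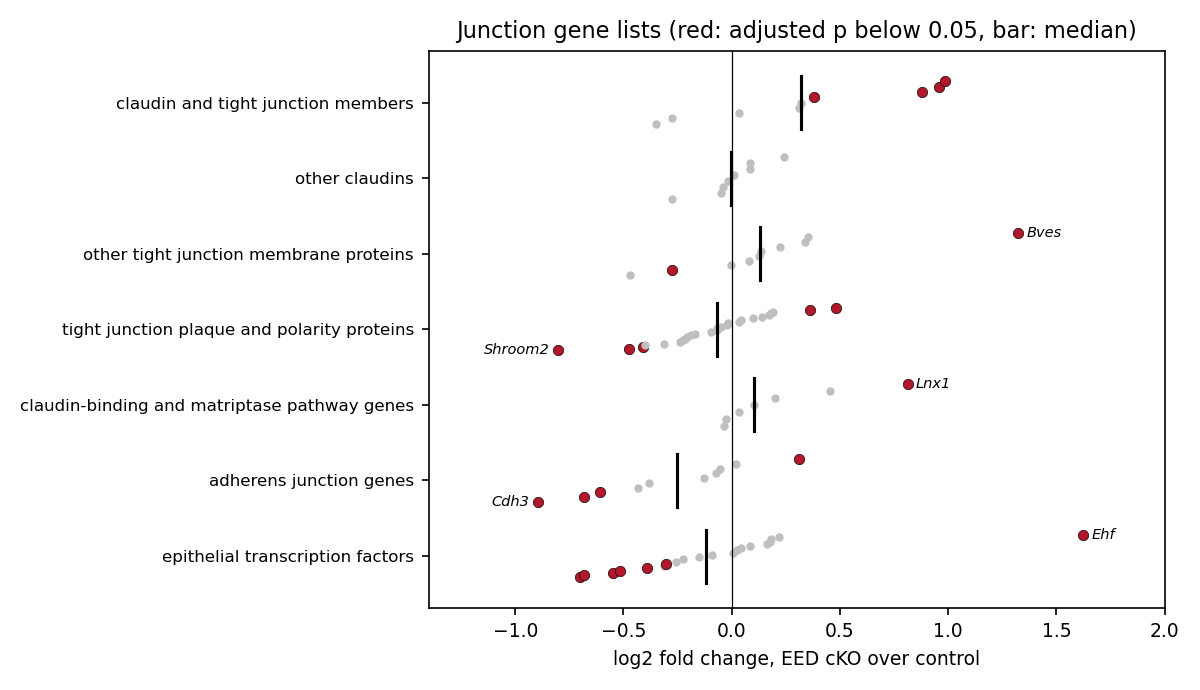
Log2 fold change of EED cKO over control on the horizontal axis for the 9 genes and the 6 further lists, 1 point a gene, in red where the adjusted p was below 0.05, with a vertical bar at the median of each list. The median is 0.32 for the 9 tight junction genes and lies between -0.25 and 0.13 for the other lists, and Bves and Ehf are the only points past 1 to the right. Genes and lists were chosen with earlier results of these data known, so the medians are descriptions only.

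Markers of other cells and layers moved in the same samples, and their part in the claudin changes was not tested. Over all targets, 11.8% were called higher and 9.93% lower, the shares to set beside the counts below. All 5 keratins of simple epithelia and Merkel cells rose, from a mean log2 ratio between -2.55 and -2.51 in control samples to between -1.38 and -1.32 in EED cKO samples, with Krt7 up by 3.00 (SE 0.12, adjusted p = 1.59e-06). Of 11 Merkel cell markers tested, 8 rose, and their mean ran from -0.93 to -0.57 in control and from -0.22 to -0.0011 in EED cKO samples. Sox2 was well above background on 0 of 4 control and 4 of 4 EED cKO arrays, and Atoh1 and Isl1 each on 2 of 4 and 4 of 4. These markers passed the filter only through the EED cKO arrays, where they are high, which limits the Merkel cell count and mean. Of 6 sweat gland and simple epithelium markers, 4 were tested and all 4 rose (mean -0.18 to 0.04 in control, 1.09 to 1.14 in EED cKO), while Cftr was above background on no array. Aqp5, among the 4, was above background on 4 EED cKO but only 2 control arrays, so it carries the same limit. These lists share genes, since Krt7 and Krt19 are in the first and the last and Krt8, Krt18 and Krt20 in the first and the Merkel cell list.

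Of 11 granular layer genes, the layer that carries the tight junction, 4 rose and 0 fell, with a mean of 2.77 to 3.29 in control and 3.21 to 3.65 in EED cKO samples. Krt2 rose by 1.00 and Sprr1a by 1.56, whereas Lor gave 0.10 (adjusted p = 0.386) and Casp14 gave 0.11 (adjusted p = 0.359). Of 9 basal layer genes, 6 fell and 0 rose, but Krt5 and Krt14 gave 0.06 and 0.11 and were not called. Of 8 spinous layer genes 1 fell, and of 8 hair follicle genes tested 2 rose and 3 fell. Of 3 endothelial markers tested 2 rose (mean 0.35 to 0.57 in control, 1.00 to 1.19 in EED cKO), while the defining markers Cdh5 and Tek were above background on no array. Of 7 dermal fibroblast markers 1 rose, with overlapping means of -3.25 to -2.96 in control and -3.12 to -2.98 in EED cKO. Of 6 immune cell markers 2 rose, of 6 melanocyte markers 0 were called (2 higher at limma's unadjusted p below 0.05, 1 by the methods' test), and of 5 Schwann cell and neuron markers 1 rose and 1 fell. With 11.8% of all targets called higher and 9.93% lower, 1 gene called of 7 or 8 is near that share.

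The genes with the pattern most like Cldn3 over the 8 arrays were Acoxl, Mill1, Nrg1, Prkcb and Insrr, with Pearson r from 0.98 to 0.99. Those most like Cldn8 were Bex4, Nup188, Cd302, 9130008F23Rik and Tnfrsf11b, with r from 0.97 to 0.98. Acoxl differed between the genotypes by 1.00 (SE 0.11) and Bex4 by 2.26 (SE 0.23). The arrays share the genotype difference, the dye and the slide, so these values describe likeness only.

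Across 25 alternative settings, Cldn3 and Cldn8 were each called in 24, with log2 fold changes from 0.71 to 2.97 and from 0.77 to 1.12, and Cldn7 ranged from 0.70 to 1.17. Cldn3 passed the filter only through the EED cKO arrays, where it is high, so its calls in these settings carry the limit given above. The settings are not all separate checks. A normalization of intensity between arrays left the ratios unchanged and so repeated the reported values. The deposited table repeated the scanner software's log ratio. Cldn12, Cldn23 and Tjp1 kept their sign in all 25 settings but were called in 2, 3 and 3. With the mean of the Y-linked genes in the fit, Cldn3, Cldn7, Cldn8 and Ocln stayed called, at 1.01, 0.77, 0.83 and 0.51, and Cldn23 was called too, at 0.54 (adjusted p = 0.0265).

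**Figure D4:**
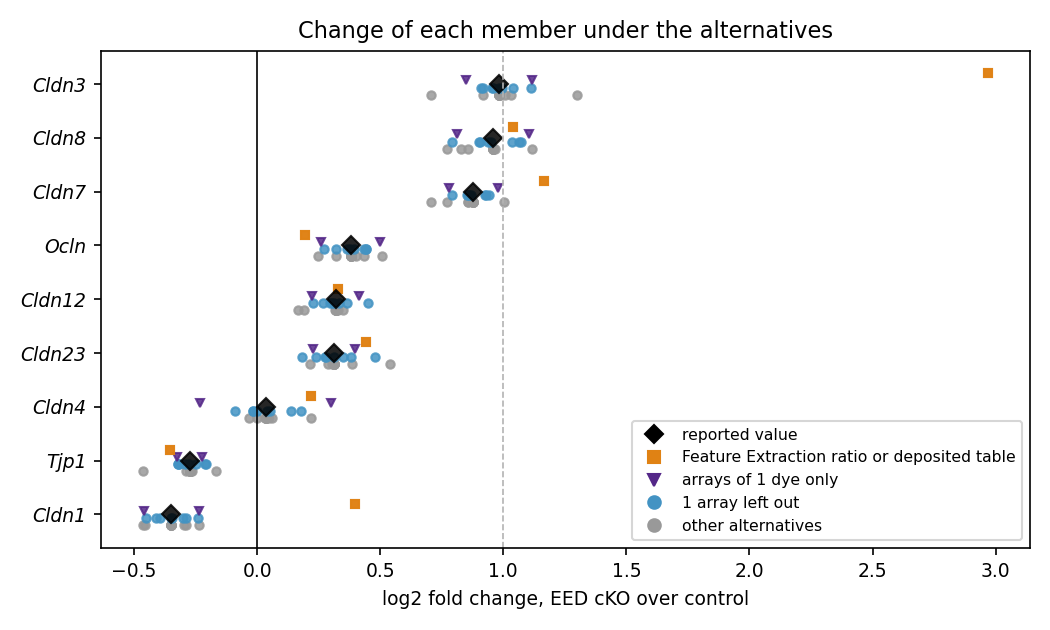
Log2 fold change of EED cKO over control for each of the 9 genes under the reported setting (black) and 25 alternatives (coloured by kind), with 0 and 2-fold marked. Cldn3 reaches 2.97 with the scanner software's log ratio and the deposited table, and Cldn1 crosses 0 with the same values.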

How the data were processed

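Epidermal RNA of the 2 genotypes was profiled on 2-colour Agilent mouse arrays, with the sample in Cy3 on replicates 1 and 3 and in Cy5 on replicates 2 and 4. The authors used Agilent Feature Extraction 12.0.1.1 and deposited, per the file headers, unnormalized spot and background intensity and a log10 ratio made by that software. Log2 ratios deposited as a further table are nearly the same values on another scale.

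The normexp correction of median spot intensity, at offset 50, draws ratios of dim spots toward 0. Arrays were normalized by loess, and ratios were turned to sample over reference. Control and outlier spots were left out, and 19 values among the targets tested stayed missing. A gene was represented by its brightest probe, and tested if its sample signal was well above background on 3 or more of the 4 arrays in either group. RefSeq accessions matched 28026 of 29796 probes. The comparison used limma 3.58.1 (R 4.3.3) with genotype and dye as terms and Benjamini-Hochberg adjustment over 23139 targets, at 0.05. Tested on simulated data of 23120 targets with 200 changed 2-fold, it recovered 199 and 198 and called 9 and 14 others. The simulated errors were independent between arrays and every change was 2-fold, unlike these data. It therefore does not show how well smaller changes are recovered. The number of arrays limits the precision.

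The tight junction genes and the lists were chosen with earlier results of these data known. Genes of the lists were named when called at 2-fold, or as the up to 3 smallest adjusted p of a list; markers, neighbours, genes not called, Pard3, Amot and Nectin3 were picked after their values were seen. Same-numbered samples deviated together across targets (correlation 0.49, 0.68, 0.33 and 0.36; with the dye removed, 0.13 and 0.46), a pairing taken from the data, not from the labels. Alternatives were other background corrections, log ratios, normalizations, filters, probe rules, covariates, variance models, the methods' t-test, each dye alone, and each array left out.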

Additional observations from a re-analysis of the deposited data

Results flagged for a closer look

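Cldn12 in control samples was flagged because replicate 1, at 0.02, stood apart from the other three, at -0.60 to -0.55, with a gap of 0.910 of the whole range, past Dixon's critical value for 4 samples. Of 18 groups of 4 examined (9 genes in 2 genotypes) this was the 1 flagged, and chance flags about 1 in 20.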

How the results depend on the processing

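The number of tight junction genes called, 4, was 8 with the replicate block in place of the dye and 1 within the Cy3 arrays, and ran from 3 to 6 with an array left out. The highest, 6, was without control replicate 1, where Cldn12, Cldn1 and Tjp1 were called and Ocln was not. The number at 2-fold or more, 0, was 3 without background correction, 3 with the Feature Extraction log ratio and 3 with the deposited table, 1 each with the Y-linked covariate, array weights and the Cy5 arrays, and 0 to 2 with an array left out. It was 2 without EED cKO replicate 1, and 1 without EED cKO replicate 2, control replicate 3 or control replicate 4. The share of all targets at 2-fold was not counted for these alternatives. The 19 genes called in the 6 further lists became 11 with no dye term, 12 with the Y-linked covariate, 4 by the methods' t-test, 3 within Cy3, 11 within Cy5, and 13 to 24 with an array left out. Over all targets the share called was 21.7% at the reported setting and 25.9% with the replicate block. It was 2.14% within Cy3, 10.6% within Cy5, 10.2% with no dye term, 12.1% with the Y-linked covariate and 3.95% by the methods' t-test. With an array left out it ran from 11.8% to 21.9%.

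Cldn1 turned to 0.40 with the Feature Extraction log ratio and 0.40 with the deposited table. Cldn4, near 0, turned to -0.033 as a median over its probes, to -0.23 within Cy3, and ran from -0.089 to 0.18 with an array left out. The cause was not tested in any of these. By the methods' t-test, 5 of the 9 had an unadjusted p below 0.05 and 3 after Benjamini-Hochberg, and 0 also reached the 2-fold that the methods ask for. The replicate block changed the call of Cldn1, Cldn12, Cldn23 and Tjp1 and of no other of the 9. Median centring moved the median over all targets from 0.02 to -0.04. It called 2554 targets in place of 5024, no dye term called 2358, the Y-linked covariate 2804, and the methods' t-test 913. Low signal limits Cldn3 in control samples and Cldn6 in all.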
